A study of Mus musculus with 9 samples.

Results

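The genes described here, 39 in number, encode nucleolar factors of ribosome biogenesis and RNA polymerase I with its initiation factors. They were chosen by function, with earlier results of these data known, and matched by symbol to the annotation of the array. All 39 were found, out of 18193 genes with a probe set, and all 39 were among the 13278 genes bright enough to be tested. Each gene was read by its brightest probe set.

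The cells were cytotoxic T lymphocytes (CTL), the killer cells that CD8 T cells become after activation, grown from spleens of P14-TCR mice. These mice carry a T cell receptor transgene, and the labels give their genotype as wild type and no age. Splenocytes were stimulated with the receptor's peptide plus IL-2 and IL-12 for 48 h and then expanded for 96 h, so that RNA was taken on day 6. For the final 48 h the 3 cultures of each spleen received DMSO (the solvent), 20 nM of rapamycin or 1 uM of KU-0063794. There were 3 spleens, hence 3 arrays in each of the 3 groups, and values are listed below in the order of spleens 1, 2 and 3. No sort of the cells is named in the labels, and each inhibitor was used at 1 dose.

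Ribosomes begin in the nucleolus, where RNA polymerase I copies the ribosomal genes into a long precursor RNA. UBTF and the SL1 complex, of which TAF1D is a subunit, mark the promoter, and RRN3 carries the polymerase to it. Small nucleolar ribonucleoproteins (snoRNPs) then modify the precursor. Those of the box C/D kind methylate riboses, with fibrillarin (Fbl) as the enzyme, and those of the box H/ACA kind turn uridines into pseudouridines, with dyskerin (Dkc1) as the enzyme. Further sets of factors fold and cut the RNA into the small and the large subunit. mTOR complex 1 is known to promote this pathway in growing cells, and activated T cells enlarge their nucleoli as they begin to divide. Rapamycin binds FKBP12 and blocks mainly mTOR complex 1, whereas KU-0063794 blocks the catalytic site of mTOR and so acts on both of its complexes. The arrays measured the messenger RNAs of these factors, not the making of ribosomal RNA or ribosomes.

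Every one of the 39 genes was read above the background level, 1.45 log2, which is the 95th percentile of 28 genes restricted to other tissues. Of the 13278 genes tested, 7938 were above it. Shares given below for all genes thus include many genes at background, unlike the counts of the 39. Mean log2 signals over the 9 arrays ran from 3.02 for Polr1b to 10.18 for Npm1, though signals of different probe sets are not comparable as amounts. Array medians lay between 0.47 and 0.53 log2, and all 8 CD8 T cell marker genes measured were above background. Among genes listed as markers of other cells, Cd79a (0.73) and Pax5 (0.49) of B cells, Cd4 (1.00) and Foxp3 (0.06) of CD4 T cells and Ncr1 (0.49) of NK cells were not, while Ighm (8.21) and Ctla4 (6.39) were. In all, 2 of 7 B cell, 2 of 5 CD4 T cell, 1 of 10 myeloid and 2 of 3 NK cell markers lay above background. Those of the NK cell list were Eomes (5.09) and Klrc1 (5.27). Signals of bulk cultures do not show which cells made these RNAs. The mean log2 signal of the B cell list ranged over 1.52 to 2.00 (DMSO), 1.36 to 1.87 (rapamycin) and 1.52 to 1.92 (KU-0063794). That of the myeloid list was 0.42 to 0.51, 0.35 to 0.44 and 0.43 to 0.54 in the same order.

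With KU-0063794, 2 of the 39 nucleolar genes rose in the fit without a term for the spleen, Gar1 and Ubtf, and none fell. With rapamycin none passed in either direction. Across the 13278 genes the same test called 4.07% with KU-0063794 (2.28% higher and 1.78% lower) and 4.44% with rapamycin (2.65% higher and 1.79% lower). At an unadjusted p under 0.05 the counts were 12 of 39 with KU-0063794 (all genes: 18.5%) and 4 of 39 with rapamycin (all genes: 17.9%). Because the 3 cultures of a spleen share their cells, a fit with the spleen as a block was set beside it. It called 10 of the 39 higher and none lower with KU-0063794, where it called 12.4% of all genes (6.52% higher and 5.86% lower). With rapamycin it called 1 higher (Ddx21) and 1 lower (Polr1e), where it called 11.8% of all genes (6.24% higher and 5.52% lower). With the spleen as a random block in place of this fixed one, 5 of the 39 passed with KU-0063794 (Gar1, Ubtf, Fbl, Nop10 and Pus7) and 0 with rapamycin. That fit called 1291 of the 13278 genes with KU-0063794 and 1245 with rapamycin. Of the 3 fits, Ncl, Utp20, Nat10, Tcof1, Polr1e and, in both contrasts, Ddx21 therefore passed only in the one with the fixed block. Thresholds were an adjusted p of 0.05 in limma, adjusted over all genes tested. Each SE below is from the fit without the block, also where a p with the block stands beside it. With the fixed block, the SEs of the nucleolar genes it called ran from 0.067 (Ncl) to 0.099 (Utp20). Both contrasts use the same DMSO arrays, so they are not independent of each other. In RNA from bulk cultures, a lower signal from fewer expressing cells cannot be told apart from less RNA per cell, and signals scaled between arrays carry no total RNA per cell.

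Differences were small for nearly all of the genes. On the log2 scale, where 1 stands for a doubling, the 39 differences from DMSO ran from -0.36 to 0.36 with rapamycin and from -0.20 to 0.50 with KU-0063794. Their median was 0.04 with rapamycin (SD over spleens 0.0636, n = 3) against -0.004 over all genes. The median with KU-0063794 was 0.15 (SD 0.0525, n = 3) against 0.01 over all genes. It ranged from 0.09, without the KU-0063794 array of spleen 2, to 0.20 when 1 array or spleen was left out. With KU-0063794, 33 of the 39 differences were above 0, a share of 84.6% where all genes had 53.1%. With rapamycin it was 23 of 39, or 59.0%, where all genes had 48.7%. The unadjusted 95% interval of every one of the 39 genes lay within 1 log2 unit of 0 in both contrasts, and that of 32 genes with rapamycin and 28 with KU-0063794 lay within 0.5.

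**Figure D1:**
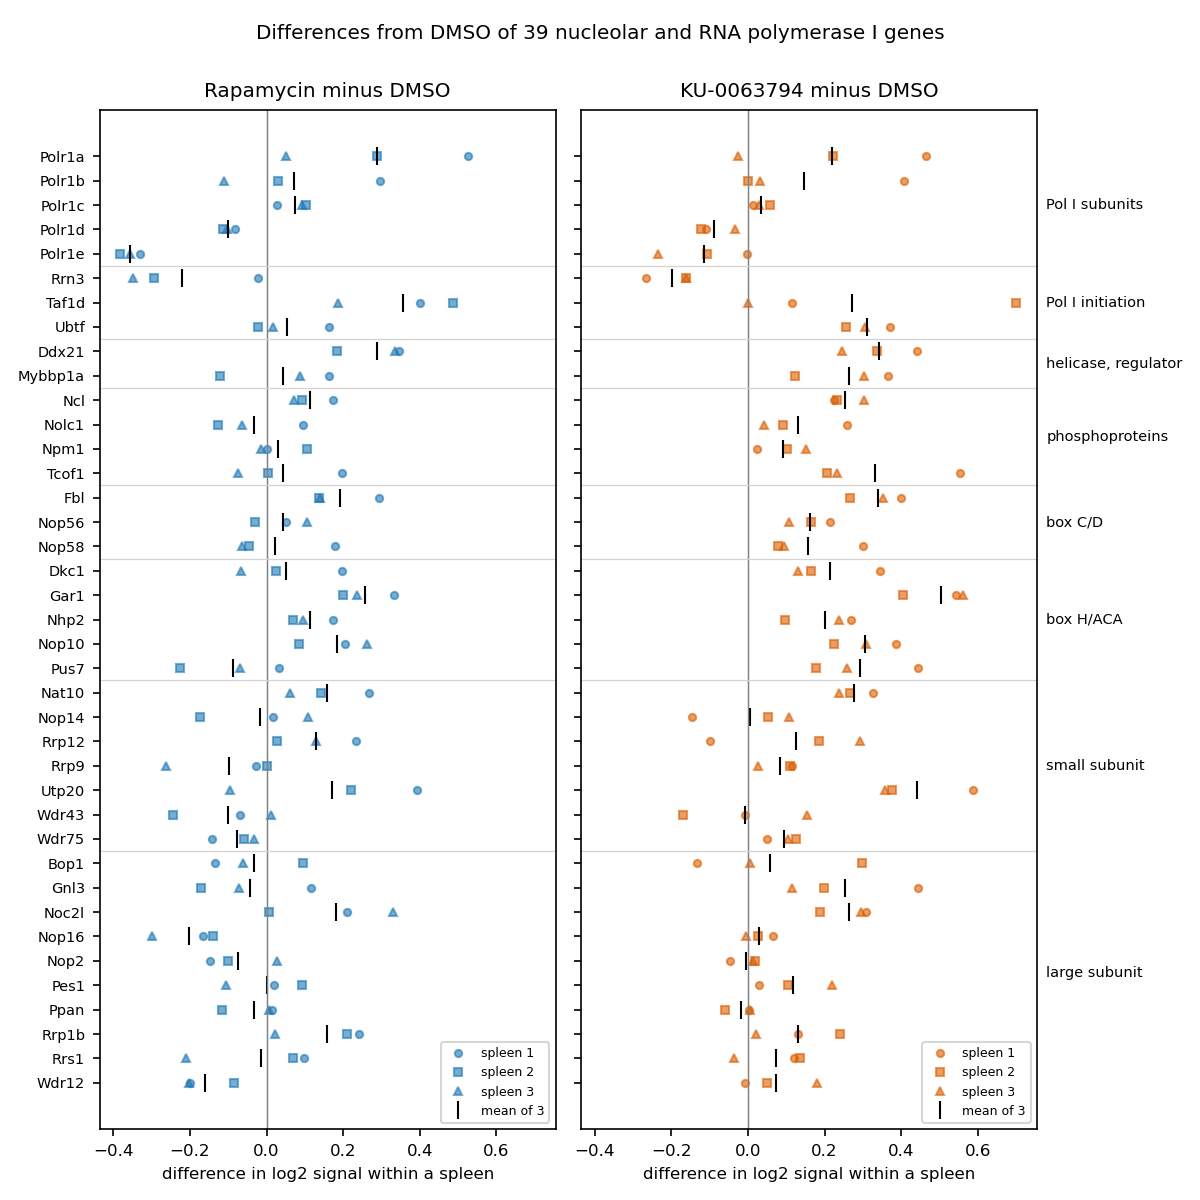
Difference in log2 signal from DMSO within each spleen (x axis) for the 39 genes (rows, grouped by role), for rapamycin on the left and KU-0063794 on the right. Circles, squares and triangles are spleens 1, 2 and 3 and the bar is their mean; 24 genes were higher in all 3 spleens with KU-0063794 and 13 with rapamycin.

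The direction within spleens was read gene by gene. KU-0063794 cultures were higher than the DMSO culture of the same spleen in all 3 spleens for 24 of the 39 genes (all genes: 22.1%) and lower in all 3 for Polr1d, Polr1e and Rrn3 (all genes: 19.3%). Polr1e in spleen 1 differed by under 0.01. With rapamycin 13 were higher (all genes: 19.7%) and 6 lower (all genes: 21.4%) in all 3 spleens. The 3 KU-0063794 arrays stood above all 3 DMSO arrays for 11 of the 39 (all genes: 11%) and below them for none (all genes: 9.29%). Rapamycin arrays stood apart from DMSO for 5 genes, Gar1, Nop10 and Rrp1b above (all genes: 9.38%) and Nop16 and Polr1d below (all genes: 9.69%).

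**Figure D2:**
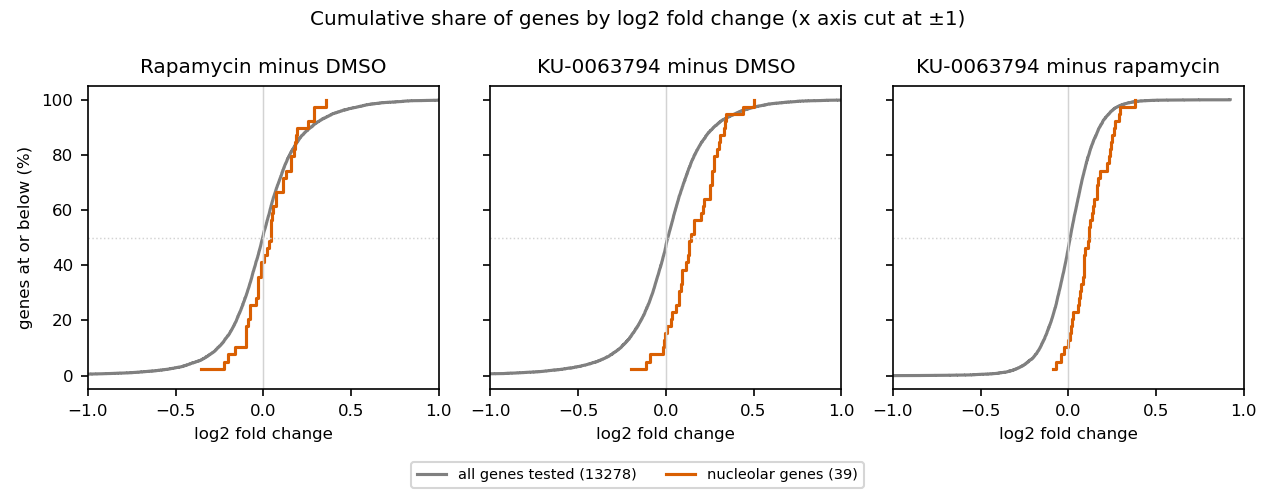
Cumulative share of genes (y axis, percent) at or below each log2 fold change (x axis, from -1 to 1) for the 39 nucleolar genes and for the 13278 genes tested, in the 3 contrasts. The line of the nucleolar genes crosses 50% at 0.04 with rapamycin, 0.15 with KU-0063794 and 0.12 for KU-0063794 minus rapamycin.

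The box H/ACA snoRNP genes held the largest difference. Gar1 encodes a core protein of these particles, which also contain dyskerin, NHP2 and NOP10. Its signal was 6.16, 6.43 and 6.35 log2 in DMSO, 6.50, 6.63 and 6.58 in rapamycin and 6.71, 6.83 and 6.91 in KU-0063794 cultures. The 3 groups did not overlap, with DMSO lowest and KU-0063794 highest in every spleen. Gar1 rose by 0.50 (SE 0.09, adjusted p = 0.0212), or 1.42-fold, with KU-0063794. This call held in 13 of 21 other settings, with adjusted p from 0.00495 to 0.207 and differences from 0.43 to 0.56. It was lost without the DMSO array of spleen 1 (0.0756), without the KU-0063794 array of spleen 1, 2 or 3 (0.0529, 0.0800 and 0.0791), without any 1 spleen (0.126 to 0.207), and in a fit of only the 6 arrays compared (0.0688). With rapamycin the difference of Gar1 was 0.26 (SE 0.09), which did not pass (adjusted p = 0.182, and 0.0515 with the spleen as a block).

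Nop10, the smallest protein of the same core, read 7.51, 7.71 and 7.53 in DMSO, 7.72, 7.79 and 7.79 in rapamycin and 7.90, 7.93 and 7.84 in KU-0063794 cultures. The KU-0063794 arrays again lay above all others, and the rapamycin arrays lay above DMSO. Its difference of 0.31 (SE 0.08) with KU-0063794 missed the threshold without the block and passed with it (adjusted p = 0.0711 and 0.0295). Without the block it passed with an intensity trend (0.0254) and without the DMSO array of spleen 2 (0.0424). Its second probe set gave 0.29.

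Pus7 encodes a stand-alone pseudouridine synthase that works without a guide RNA. It read 3.89, 4.05 and 3.96 in DMSO, 3.92, 3.83 and 3.89 in rapamycin and 4.34, 4.23 and 4.22 in KU-0063794 cultures. DMSO and rapamycin overlapped, and all KU-0063794 arrays were above both. The difference with KU-0063794 was 0.29 (SE 0.08, adjusted p = 0.0740 without the block and 0.0461 with it), against -0.09 (SE 0.08, adjusted p = 0.621) with rapamycin. Dkc1 and Nhp2, the other core genes, were 0.21 and 0.20 higher with KU-0063794, in 3 of 3 spleens each, and passed in neither fit. Other Dkc1 probe sets, at 6.09 and 5.31 log2, gave 0.03 and 0.10, and the second Nhp2 probe set gave 0.20.

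Fbl, the methyltransferase of the box C/D particles, read 7.68, 8.02 and 7.93 in DMSO, 7.97, 8.16 and 8.07 in rapamycin and 8.08, 8.29 and 8.29 in KU-0063794 cultures. Every KU-0063794 array was above the DMSO arrays, while rapamycin overlapped with both. Its difference of 0.34 (SE 0.11) with KU-0063794 passed only with the block (adjusted p = 0.127 without and 0.0186 with it), and the second Fbl probe set gave 0.33. The scaffold genes of the same particle, Nop56 and Nop58, were 0.16 higher each with KU-0063794 and did not pass. A second Nop56 probe set, at 7.30 log2, gave 0.04. With rapamycin the 3 box C/D genes differed by 0.02 to 0.19.

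Among the RNA polymerase I initiation factors the 3 genes went different ways. Ubtf encodes the upstream binding factor that keeps ribosomal genes open. It read 5.19, 5.32 and 5.32 in DMSO, 5.36, 5.29 and 5.34 in rapamycin and 5.56, 5.57 and 5.63 in KU-0063794 cultures. All 3 KU-0063794 arrays lay above the other 6, which overlapped. Ubtf rose by 0.31 (SE 0.07, adjusted p = 0.0453), or 1.24-fold, with KU-0063794 and differed by 0.05 (SE 0.07, adjusted p = 0.771) with rapamycin.

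The Ubtf call was close to the threshold. It held in 5 of 21 other settings (adjusted p from 0.0174 to 0.714), the spleen block among them (0.0248), and was lost whenever any 1 of the 9 arrays or any spleen was left out (0.0598 to 0.314). Its second probe set, at 0.84 log2, was below background and differed by -0.17. Averaging both probe sets gave 0.07 (adjusted p = 0.714).

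Rrn3, whose protein bridges the polymerase and SL1 and is a known point of control by mTOR, read 4.51, 4.66 and 4.18 in DMSO. Its rapamycin values were 4.49, 4.36 and 3.83 and its KU-0063794 values 4.25, 4.50 and 4.02. The spread between spleens exceeded the differences between groups, and all groups overlapped. Rrn3 was lower in all 3 spleens with each inhibitor, by -0.22 (SE 0.20, adjusted p = 0.622) with rapamycin and -0.20 (SE 0.20, adjusted p = 0.670) with KU-0063794, and passed in neither fit.

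Taf1d had the largest positive difference with rapamycin and did not pass. It read 3.60, 3.72 and 4.02 in DMSO, 4.0, 4.20 and 4.21 in rapamycin and 3.72, 4.42 and 4.02 in KU-0063794 cultures, with all groups overlapping. The differences were 0.36 (SE 0.17, adjusted p = 0.324) and 0.27 (SE 0.17, adjusted p = 0.463). Of its 4 other probe sets above background, none differed by more than 0.11 from DMSO in either direction.

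Of the 5 subunits of RNA polymerase I itself none passed with KU-0063794 in either fit, and their median difference was 0.03. Polr1e, a subunit that helps the enzyme engage and elongate, gave the largest negative difference among the 39 genes. It read 3.55, 3.93 and 3.62 in DMSO, 3.22, 3.55 and 3.26 in rapamycin and 3.54, 3.82 and 3.38 in KU-0063794 cultures. Each rapamycin culture was below the DMSO culture of its spleen by 0.33 to 0.38, although the groups overlapped through spleen 2. The difference with rapamycin, -0.36 (SE 0.15), passed only with the block (adjusted p = 0.238 without and 0.0192 with it). With KU-0063794 it was -0.11 (SE 0.15, adjusted p = 0.758). The second Polr1e probe set gave -0.18 with rapamycin.

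Polr1a encodes the largest subunit, which carries the catalytic centre. It read 2.80, 3.21 and 3.35 in DMSO, 3.32, 3.50 and 3.40 in rapamycin and 3.26, 3.43 and 3.32 in KU-0063794 cultures. The low DMSO array of spleen 1 set much of the difference, and the groups overlapped. The differences were 0.29 (SE 0.13, adjusted p = 0.301) with rapamycin and 0.22 (SE 0.13, adjusted p = 0.437) with KU-0063794.

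Polr1c and Polr1d encode subunits that RNA polymerase I shares with RNA polymerase III. Polr1d read 7.84, 7.82 and 7.89 in DMSO, 7.75, 7.71 and 7.78 in rapamycin and 7.73, 7.70 and 7.85 in KU-0063794 cultures. Its rapamycin arrays were all below DMSO, by -0.10 on average (SE 0.07, adjusted p = 0.541). Polr1c read 6.23, 6.06 and 6.22 in DMSO, 6.25, 6.16 and 6.32 in rapamycin and 6.24, 6.11 and 6.25 in KU-0063794 cultures, and the widest gap between its group means was 0.07. Polr1b, the second largest subunit, differed by 0.07 and 0.15 and did not pass.

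**Figure D3:**
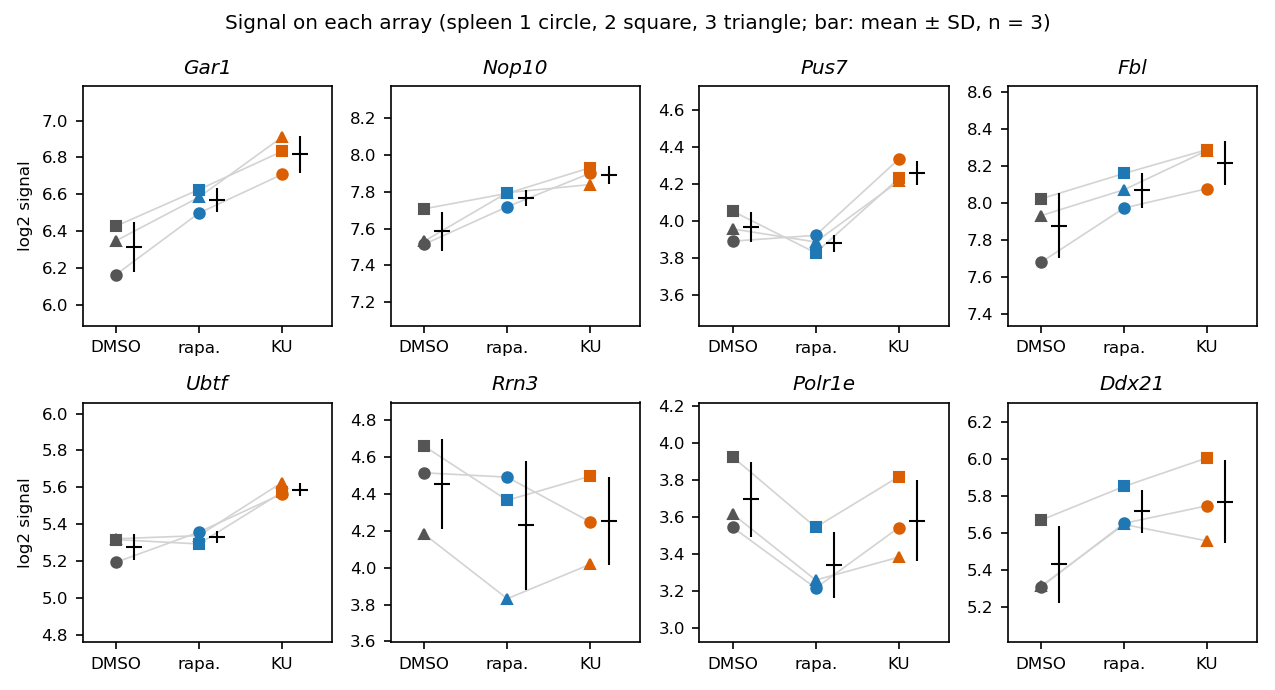
Log2 signal (y axis) on each array for 8 of the genes, by treatment (x axis, rapa. for rapamycin and KU for KU-0063794). Circles, squares and triangles are spleens 1, 2 and 3, joined by lines, and the bar is the group mean ± SD (n = 3); Gar1 stands highest on the KU-0063794 arrays, at 6.71 to 6.91, and Polr1e lowest on the rapamycin arrays, at 3.22 to 3.55.

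Ddx21, an RNA helicase that acts in ribosomal gene transcription and precursor processing, was the only gene of the 39 that passed with the fixed block in both contrasts against DMSO, and it passed in neither without a block or with a random one. It read 5.31, 5.67 and 5.31 in DMSO, 5.65, 5.85 and 5.65 in rapamycin and 5.75, 6.01 and 5.56 in KU-0063794 cultures. Each treated culture was above the DMSO culture of its own spleen, and the groups overlapped because spleen 2 was high throughout. The difference was 0.29 (SE 0.14) with rapamycin, with adjusted p = 0.323 without and 0.0480 with the block. With KU-0063794 it was 0.34 (SE 0.14), with adjusted p = 0.229 without and 0.0259 with the block. A second Ddx21 probe set, at 5.42 log2, gave -0.10 and -0.03, so the 2 readings of this gene disagree. Mybbp1a, a nucleolar regulator of RNA polymerase I, was 0.26 higher with KU-0063794 (adjusted p = 0.281) and passed in neither fit.

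Nucleolin (Ncl) and treacle (Tcof1) are nucleolar phosphoproteins that act in ribosomal gene transcription. Ncl read 8.96, 8.99 and 9.17 in DMSO, 9.14, 9.08 and 9.24 in rapamycin and 9.19, 9.23 and 9.47 in KU-0063794 cultures. All KU-0063794 arrays were above DMSO and the rapamycin arrays overlapped with both. The difference of Ncl with KU-0063794, 0.25 (SE 0.10), passed only with the block (adjusted p = 0.211 without and 0.0472 with it), and its 3 other probe sets above background gave 0.14 to 0.83.

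Tcof1 read 3.47, 3.97 and 3.70 in DMSO, 3.67, 3.98 and 3.62 in rapamycin and 4.02, 4.18 and 3.93 in KU-0063794 cultures. Its KU-0063794 values overlapped with DMSO only through the DMSO array of spleen 2. The difference was 0.33 (SE 0.14), with adjusted p = 0.261 without and 0.0452 with the block, while its 2 other probe sets gave -0.02 and -0.01. Npm1, the histone chaperone that gives the nucleolus its granular zone, had the highest signals of all, 10.09 to 10.27 over the 9 arrays, and differed from DMSO by 0.03 and 0.09. Nolc1, a chaperone of snoRNPs, differed by -0.03 and 0.13. Neither passed. Other Nolc1 probe sets, at 3.30 and 4.74 log2, gave 0.49 and 0.06 with rapamycin and 0.55 and 0.13 with KU-0063794.

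In the small subunit pathway 2 of 7 genes were higher with the block with KU-0063794 (all genes: 6.52%), and none passed in the fit without it. Utp20, a large scaffold of the processome that makes the small subunit, read 4.31, 4.91 and 4.82 in DMSO, 4.70, 5.13 and 4.72 in rapamycin and 4.89, 5.29 and 5.18 in KU-0063794 cultures. The DMSO array of spleen 1 was the lowest of the 9. The difference with KU-0063794 was 0.44 (SE 0.18), with adjusted p = 0.238 without and 0.0267 with the block.

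Nat10, which acetylates cytidines in the small subunit RNA, read 3.69, 4.01 and 4.08 in DMSO, 3.96, 4.15 and 4.14 in rapamycin and 4.02, 4.27 and 4.32 in KU-0063794 cultures. It was highest with KU-0063794 in each spleen, and the groups overlapped. The difference was 0.28 (SE 0.12), with adjusted p = 0.276 without and 0.0380 with the block. The other 5 genes, Nop14, Rrp9, Rrp12, Wdr43 and Wdr75, differed from DMSO by -0.10 to 0.13 with either inhibitor and passed in neither fit. A second Wdr43 probe set, at 5.16 log2, gave 0.20 with rapamycin and 0.30 with KU-0063794. Wdr75, a member of the subcomplex that joins the precursor first, was lower in all 3 spleens with rapamycin and higher in all 3 with KU-0063794.

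None of the 10 large subunit genes passed in any contrast in either fit. Their medians were -0.03 with rapamycin and 0.07 with KU-0063794. Nop16, a nucleolar factor bound to the large subunit precursor, read 5.04, 4.99 and 5.11 in DMSO, 4.88, 4.85 and 4.81 in rapamycin and 5.11, 5.01 and 5.11 in KU-0063794 cultures. All rapamycin arrays were below all others, and the difference of -0.20 (SE 0.07) did not pass (adjusted p = 0.176, the lowest of the 39 with rapamycin, and 0.101 with the block).

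Gnl3, or nucleostemin, a nucleolar GTPase found in dividing cells, read 6.31, 6.61 and 6.40 in DMSO, 6.43, 6.44 and 6.33 in rapamycin and 6.76, 6.81 and 6.52 in KU-0063794 cultures. Its KU-0063794 values were above the rapamycin values in every spleen and overlapped with DMSO. The difference from DMSO, 0.25 (SE 0.11), did not pass (adjusted p = 0.244, and 0.101 with the block). The PeBoW genes Pes1, Bop1 and Wdr12, whose products form 1 complex, differed by 0.12, 0.06 and 0.07 with KU-0063794 and by 0.00, -0.03 and -0.16 with rapamycin. Noc2l was 0.26 higher and Rrp1b 0.13 higher with KU-0063794, in all 3 spleens, while Nop2, Ppan and Rrs1 differed by 0.00, -0.02 and 0.07. None of these passed. Other probe sets above background disagreed in part, as that of Noc2l gave -0.09 and those of Rrp1b -0.13 and 0.07 with KU-0063794.

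The 2 inhibitors were then compared with each other, at their single doses and the same exposure of 48 h. None of the 39 genes passed in limma, with or without the block, and the lowest adjusted p was 0.933 without and 0.299 with it. Of all 13278 genes 0% passed in either fit. At an unadjusted p under 0.05 the count was 6 of the 39 (15.4%) without the block and 12 (30.8%) with it. Of all genes 629 (4.74%) were counted without the block and 1329 (10%) with it. The median of the 39 differences, KU-0063794 minus rapamycin, was 0.12 (SD over spleens 0.0283, n = 3) against 0.01 over all genes. Of the 39, 34 were above 0 (87.2%, where all genes had 53.8%), 24 were higher with KU-0063794 in all 3 spleens (all genes: 16.3%) and 12 had all 3 KU-0063794 arrays above the rapamycin arrays (all genes: 4.87%). None lay wholly below (all genes: 3.3%).

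Pus7 had the largest such difference, 0.38 (95% interval 0.21 to 0.56, adjusted p = 0.933), followed by Gnl3 at 0.29 (0.06 to 0.53) and Tcof1 at 0.29 (-0.04 to 0.61). For Ubtf it was 0.26 (0.10 to 0.42), for Gar1 0.25 (0.04 to 0.46) and for Nop16 0.23 (0.07 to 0.39). These intervals are not adjusted for the number of genes. At the other end stood Taf1d at -0.09 (-0.48 to 0.30), Polr1a at -0.07 (-0.37 to 0.23) and Polr1c at -0.04 (-0.23 to 0.15). Every interval of the 39 lay between -0.48 and 0.68, so a gap of 1 log2 unit between the inhibitors lay outside the unadjusted interval of each gene. The absence of a call does not show that the inhibitors acted alike on these genes.

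**Figure D4:**
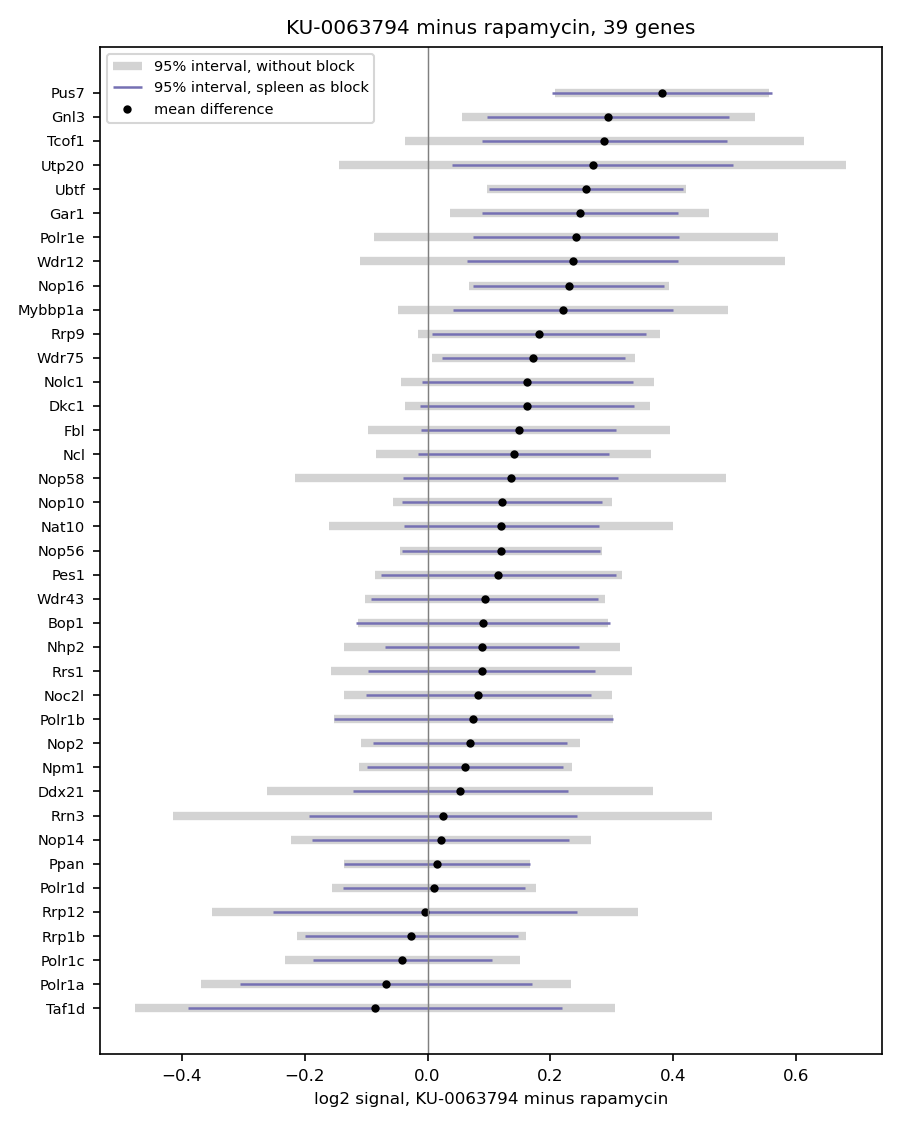
Mean difference in log2 signal, KU-0063794 minus rapamycin (x axis), for the 39 genes (rows, sorted), with unadjusted 95% intervals from the fit without the block (grey) and with the spleen as a block (purple). Points run from -0.09 for Taf1d to 0.38 for Pus7, and 34 of 39 lie above 0.

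The wider pathway was covered by 5 further lists of ribosome biogenesis genes, holding 140 tested genes outside the 39 (5 listed genes were not analysed here). With KU-0063794, 4 of the 140 rose (2.86%, against 2.28% of all genes) and none fell. With the block 18 were higher (12.9%, against 6.52%) and 1 lower. With rapamycin 5 rose (3.57%, against 2.65% of all genes) and none fell. With the block 11 were higher (7.86%, against 6.24%) and 3 lower. The snoRNP assembly and RNA modification list had the highest median with KU-0063794, 0.25 over 18 genes. Trmt112, the partner of several RNA methyltransferases, rose by 0.48 with rapamycin (adjusted p = 0.0153) and by 0.44 with KU-0063794 (0.0220). With the block 6 of the 18 were higher and 1 lower with KU-0063794 (all genes: 6.52% and 5.86%). Among them were Rpap3 (0.40, adjusted p = 0.0117), a subunit of the chaperone complex that assembles snoRNPs, and Znhit3 (-0.36, 0.0193). The ATPases of that complex, Ruvbl1 and Ruvbl2, were 0.32 and 0.30 higher (0.0459 and 0.0468 with the block).

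Of 45 other large subunit genes, Nvl and Nop53 rose with rapamycin, by 0.59 (adjusted p = 0.0177) and 0.32 (0.0419). Nvl, an ATPase that frees maturing large subunits, also rose with KU-0063794, by 0.67 (0.0137). Sdad1 was 0.58 higher with KU-0063794 and passed only with the block (0.0762 without and 0.00486 with it). Of 48 other small subunit genes none passed without the block. With it, 3 were higher with KU-0063794 (all genes: 6.52%), among them Heatr1 (0.37, adjusted p = 0.0212). With rapamycin Utp4 was lower (-0.32, 0.0299) and Riok1 higher (0.39, 0.0338). The median of these 48 was -0.07 with rapamycin and 0.05 with KU-0063794.

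Of 18 exosome and RNA trimming genes, Exosc5 rose by 0.65 (adjusted p = 0.0154) with rapamycin and 0.52 (0.0349) with KU-0063794, and the exonuclease gene Eri1 by 0.57 (0.0252) and 0.58 (0.0242). The 11 other RNA polymerase I genes held none past the test. With the block Polr2e, whose product is shared by the 3 nuclear polymerases, was higher with both inhibitors (0.24 and 0.25, adjusted p = 0.0473 and 0.0384). Of 21 RNA polymerase III genes, Polr3b rose by 0.80 (0.0350) and Polr3k by 0.39 (0.0391) with rapamycin. None passed without the block with KU-0063794, where the lowest adjusted p was 0.05001. With the block 2 were higher and 2 lower with KU-0063794 (all genes: 6.52% and 5.86%). With rapamycin 3 were higher and none lower (all genes: 6.24% and 5.52%).

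**Figure D5:**
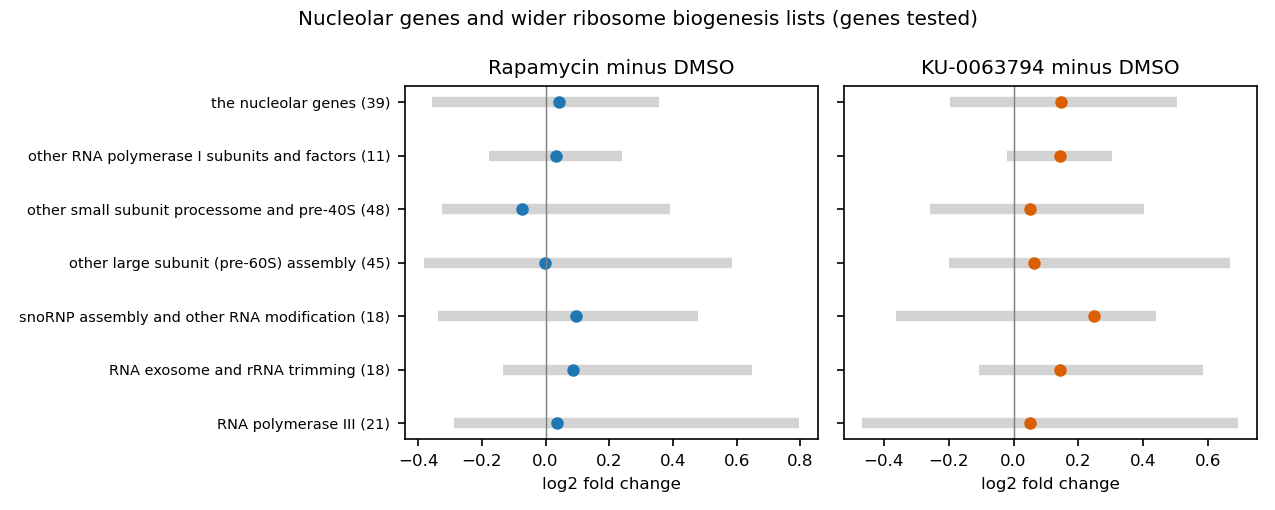
Median (dot) and range from lowest to highest (grey bar) of the log2 fold change from DMSO (x axis) for the 39 nucleolar genes and 6 wider lists (rows, number of genes tested in brackets), with rapamycin on the left and KU-0063794 on the right. With KU-0063794 all 7 medians lie above 0, the highest being 0.25 for snoRNP assembly and RNA modification.

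Many ribosome biogenesis genes are known targets of MYC, which binds the E-box CACGTG with its partner MAX. Myc read 7.75, 7.85 and 7.49 in DMSO, 8.33, 8.14 and 8.05 in rapamycin and 8.20, 8.13 and 7.93 in KU-0063794 cultures. All treated arrays were above all DMSO arrays. The differences, 0.48 with rapamycin (adjusted p = 0.0598) and 0.39 with KU-0063794 (0.115), missed the threshold without the block and passed with it (0.00881 and 0.0175). Mlx, which pairs with other members of the network, fell by 0.76 with rapamycin (adjusted p = 0.00818). Of the 10 genes of the network tested, that was the 1 call without the block in either contrast against DMSO. With the block 1 was higher (Myc) and 5 were lower with KU-0063794 (all genes: 6.52% higher and 5.86% lower). With rapamycin 3 were higher and 2 lower (all genes: 6.24% and 5.52%). Their medians were -0.21 with KU-0063794 and 0.02 with rapamycin. The 3 that were lowest with KU-0063794 were Mxd1 (-1.15, adjusted p = 0.162 without and 0.00130 with the block), Mycn (-0.60, 0.224 and 0.0141) and Mxi1 (-0.53, 0.137 and 0.00617). Mxd1 and Mxi1 encode partners of MAX that oppose MYC, and Mycn encodes a relative of MYC.

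Promoters were searched for this E-box, which reads the same on both strands, in RefSeq windows (GRCm38.p6) from 250 bases before to 50 after the start of each gene. Of the 39 genes 33 had an entry, and 7 of these (21.2%) held the motif, against 2187 of 27025 genes (8.09%) in the whole table. By windows it was 7 of 43 (16.3%) against 2349 of 32851 (7.15%). A match is only a run of letters, and no binding was measured. The 7 were Mybbp1a, Nop2, Pes1, Pus7, Rrn3, Utp20 and Wdr43. Pus7, Utp20 and Rrn3 are printed because their array values are given above, with the E-box in capitals. The Pus7 window is chr5:23783666-23783695 on the minus strand, and its E-box begins 29 bases after the start. That of Utp20 is chr10:88826765-88826794 on the minus strand, with the E-box from 38 bases after the start. Those of Rrn3 are chr16:13780472-13780501 and chr16:13780639-13780668 on the plus strand, with E-boxes that begin 215 and 48 bases before the start.
Pus7: ggcgcagcgccgCACGTGtgcgagcccggc
Utp20: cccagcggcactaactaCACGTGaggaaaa
Rrn3, far: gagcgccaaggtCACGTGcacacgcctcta
Rrn3, near: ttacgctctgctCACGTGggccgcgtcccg
With KU-0063794 the differences of these genes were 0.29, 0.44 and -0.20. Of the other genes with the motif, Mybbp1a differed by 0.26, Pes1 by 0.12, Nop2 by -0.004 and Wdr43 by -0.008. None of the 7 passed without the block, and whether the motif goes with the direction was not tested.

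Other features of the arrays differed between the groups in the same samples. The mean log2 signal of 19 mitosis genes ranged over 5.47 to 5.80 (DMSO), 6.27 to 6.33 (rapamycin) and 6.22 to 6.26 (KU-0063794). Of the 19, 15 passed the test with rapamycin and 14 with KU-0063794, all higher (all genes higher: 2.65% and 2.28%). For the actin control, the gap between its 3' and 5' probe sets was 0.49 to 0.65 log2 (DMSO), 0.62 to 0.72 (rapamycin) and 0.65 to 0.70 (KU-0063794). In every spleen both treated cultures had a wider gap than DMSO. For the Gapdh control the same gap was -0.21 to 0.04 (DMSO), -0.25 to -0.03 (rapamycin) and -0.22 to -0.03 (KU-0063794), and both treated cultures were below DMSO in every spleen, so the 2 controls differed in direction, and neither was tested. On the CD4 T cell list, Ctla4 rose with KU-0063794 (0.59, adjusted p = 0.0487), while Cd4 and Foxp3 were below background in the mean of the 9 arrays. Whether the CTL or other cells made this Ctla4 RNA cannot be told apart here. The mean of the list was 1.85 to 1.99 (DMSO), 1.89 to 1.91 (rapamycin) and 1.90 to 2.03 (KU-0063794). Of the 8 CD8 T cell markers none passed without the block. With it, Prf1 was lower with rapamycin and KU-0063794 (-1.49 and -1.74, adjusted p = 0.00393 and 0.00226). Gzmb was lower too (-0.25 and -0.24, 0.0434 and 0.0482), and Cd8b1 was higher with rapamycin (0.39, 0.0215). The rest of that list did not pass. The part of these features in the differences of the nucleolar genes was not tested.

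Choice of probe set mattered for some of the genes. The 39 genes had 84 probe sets, and 12 genes had only 1, among them Gar1, Pus7, Utp20, Rrn3 and Gnl3. For 21 genes another probe set was also above background. In 9 of these 21 at least 1 such probe set went the other way from the one used with rapamycin, in 7 with KU-0063794 and in 5 between the inhibitors. Gar1, Fbl, Nhp2, Nop56 and Polr1c were read by probe sets whose suffix marks probes shared between transcripts, and Polr1e and Rrs1 by probe sets whose suffix marks possible cross-hybridisation.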

How the data were processed

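Total RNA of 9 cultures was hybridised to Affymetrix mouse arrays, 1 array each. The deposited values are log2 signals per probe set, made by the authors with Affymetrix Expression Console 1.3.1 per the submitters' processing notes; background correction and normalization are not given in the sources used here. They were used as deposited: controls at known concentrations rose by 0.932 per log2 unit of concentration. Of 45101 probe sets, 34945 carried 1 gene symbol. Each gene took its probe set with the highest mean, and genes with a mean above the 40th percentile (0.31 log2) entered limma 3.58.1 under R 4.3.3 (groups as fixed effects over 9 arrays, two-sided moderated tests, Benjamini-Hochberg over 13278 genes, threshold 0.05). The number of arrays limits the precision.

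The labels state that cultures of 1 replicate number came from 1 spleen. Deviations from group means correlated across genes at r 0.345 to 0.533 in the 9 pairs with the same number and -0.414 to -0.0791 in the 18 others. Deviations within a group sum to 0, so positive values in the first set pull the others below 0. The second range is therefore no separate evidence of the pairing. The fit without the block is the main one, and the block is given where it changes a call. The members and lists were chosen with earlier results of these data known. All 39 members are accounted for. Array values are given for members past the threshold in either fit, plus the 3 highest and 3 lowest of each contrast. Up to 3 genes in each direction were named from other lists past the threshold, and Myc in any case. The fits were run on simulated data, where the check was that the mean of the added changes was recovered. It was no check of power at differences as small as those of most of the 39 genes.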

Additional observations from a re-analysis of the deposited data

How the results depend on the processing

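The count of nucleolar genes past the threshold depended on the setting. With KU-0063794 it was 2 in the fit without a block, 10 with the spleen as a fixed block, 5 with it as a random block, 1 after quantile normalization, 1 after median centring and 0 in a fit of only the 6 arrays compared. It was 0 to 2 with 1 array or spleen left out. With rapamycin it was 0, and 2 with the fixed block. Left-out arrays gave 1 to 7 (KU-0063794) and 0 to 2 (rapamycin) under the block, settings added after the data were seen. Without the DMSO array of spleen 1 or the KU-0063794 array of spleen 1 or 2, the count under the block was 1. Over all genes the counts were 590 with rapamycin and 540 with KU-0063794, 1561 and 1644 with the fixed block, 1245 and 1291 with the random block, 98 and 111 from only the groups compared, and 0 to 514 and 0 to 548 with 1 array or spleen left out. After quantile normalization they were 615 with rapamycin and 583 with KU-0063794, and after median centring 555 and 506. With 1 array or spleen left out, the median over the nucleolar genes was -0.0183 to 0.0688 with rapamycin and 0.0898 to 0.196 with KU-0063794. Between the inhibitors it was 0.0845 with the mean of all probe sets and 0.0917 to 0.150 with 1 array or spleen left out. Leaving out an array or a spleen also leaves fewer samples, and beyond that the cause was not tested. No call changed direction. Among the nucleolar genes the fixed block changed no call other than those named above. No filter, a stricter filter and an intensity trend kept these counts within 1.5 times. Signal over background limited no nucleolar gene.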

Other observations

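The array carries control probe sets for the small-subunit ribosomal RNA itself, which lie outside the gene comparisons. The 5' one read 8.76, 9.16 and 7.72 log2 in DMSO, 8.13, 9.12 and 7.12 in rapamycin and 8.23, 8.66 and 6.81 in KU-0063794 cultures (spleens 1, 2 and 3). The middle one read 8.51, 8.88 and 7.76, then 7.92, 8.86 and 7.44, then 8.14, 8.55 and 7.20. For the 3' one the values were 7.42, 7.79 and 6.75, then 6.96, 8.10 and 6.42, then 6.98, 7.40 and 6.11. KU-0063794 cultures were below the DMSO culture of the same spleen in 3 of 3 spleens on each probe set, and rapamycin cultures in all but spleen 2 on the 3' one. Ribosomal RNA has no long poly(A) tail, so these signals are no measure of its amount, and no test was made.

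Host genes of small nucleolar RNAs carry the guides of the snoRNPs in their introns. Of 13 measured, from a list of 16 chosen after results were known, 11 were tested and none passed without the block. Gas5, the growth arrest host gene, read 8.86, 8.88 and 9.01 in DMSO, 9.01, 8.86 and 9.01 in rapamycin and 9.17, 9.01 and 9.18 in KU-0063794 cultures. With the block Snhg7 was higher with KU-0063794 (0.52, limma adjusted p = 0.110 without and 0.0466 with it) and Snhg8 lower with rapamycin (-0.28, 0.0774 without and 0.0429 with it). The median difference between KU-0063794 and rapamycin was 0.17, with 11 of 11 above 0, where all genes had a median of 0.01 and 53.8% above 0. Of the 11, Snhg11, was below background, and its difference was 0.00304.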
